A study of Homo sapiens with 9 samples.

Results

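In HT-29 colon cancer cells, 5 genes that mark differentiated cells of the intestinal lining were followed across the treatments: VIL1 and KRT20 for the absorptive enterocyte, and SPDEF, AGR2 and TFF3 for the mucus-secreting goblet cell. They were taken by symbol from the annotation of the array, which gave each of them 1 row, so that all 5 of 5 markers were found among 14884 named genes. HT-29 is an established line of human colon adenocarcinoma. Its cells were given rosemary extract, carnosic acid (a diterpene with phenol groups made by the rosemary plant) or only the vehicle (labelled untreated), and RNA was taken after 24 h. Each of the 3 groups had 3 Affymetrix whole-transcript arrays, called biological replicates by the submitters. No label used here states a concentration, so no dose could be matched between the treatments. All groups were the same line grown in the same serum-containing medium, with no genetic change named, and no culture day is given, so p-values measure the spread between these arrays.

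The intestinal epithelium renews itself from stem cells in the crypt, whose daughters stop dividing and become either absorptive or secretory cells. Enterocytes carry a brush border of microvilli, whose actin cores are bundled by villin, the product of VIL1, and keratin 20, the product of KRT20, builds intermediate filaments in the most mature cells at the surface. Goblet cells make mucus: SPDEF encodes an ETS transcription factor needed for their maturation in the mouse, AGR2 a disulfide isomerase of the endoplasmic reticulum needed in the mouse for mucin 2 production, and TFF3 a small trefoil peptide secreted with the mucus. HT-29 cells are largely undifferentiated in ordinary medium and can be brought to either fate, which has made the line a common model of both.

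The markers did not move as a group. Of the 2 genes taken here as enterocyte markers, VIL1 fell with both treatments and KRT20 rose with both. Among the goblet cell genes SPDEF rose with both treatments, AGR2 rose with rosemary extract and not detectably with carnosic acid, and TFF3 was slightly lower with the extract, at the edge of the threshold. Differences were tested with limma on all 9 arrays and called at a Benjamini-Hochberg adjusted p under 0.05 over 11163 genes. With rosemary extract against untreated cells 5 of 5 markers were called, 3 higher and 2 lower, where 38.1% of all genes tested were called (21.8% higher and 16.3% lower). With carnosic acid against untreated cells 3 of 5 were called, 2 higher and 1 lower, against 19% of all genes (12.9% higher and 6.12% lower). Between rosemary extract and carnosic acid 2 of 5 were called, 1 higher and 1 lower, against 17.3% of all genes (8.24% higher and 9.07% lower). Groups did not overlap for 5, 3 and 3 markers in these comparisons, where 46.7%, 32.8% and 31.8% of all genes did not overlap. Both comparisons with untreated cells use the same 3 untreated arrays. The markers were chosen with earlier results of these data known, so their counts beside these shares only describe them.

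**Figure D1:**
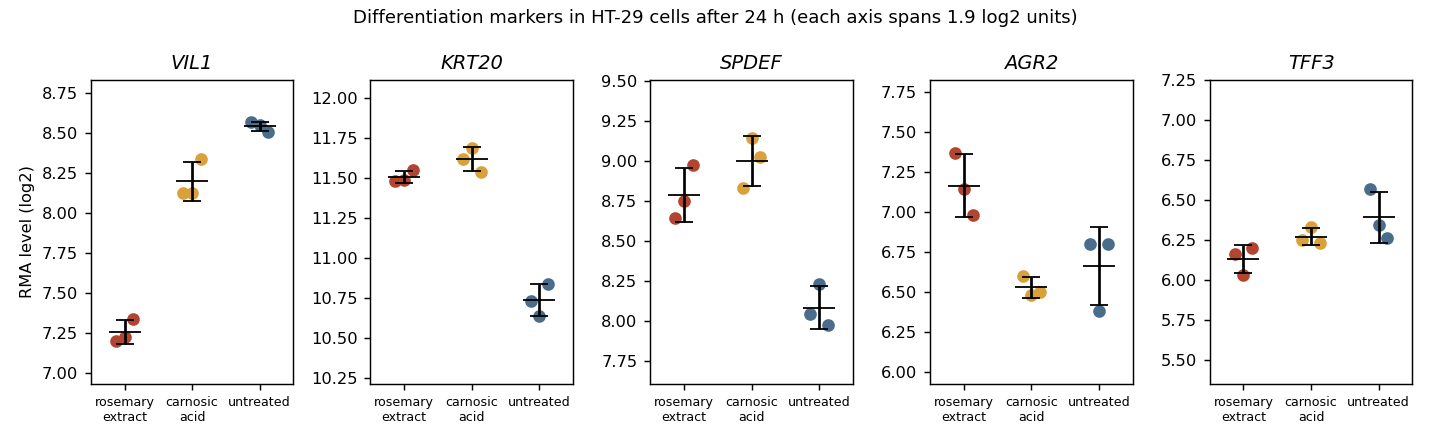
RMA levels (log2, vertical axes, each spanning the same length) of the 5 markers on the 9 arrays, with rosemary extract, carnosic acid and untreated cells from left to right. Points are arrays and bars are the mean ± SD (n = 3). VIL1 lies lowest with rosemary extract (7.20 to 7.34), and the KRT20 and SPDEF points of both treatments lie above all untreated points.

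Levels are RMA values on a log2 scale, in which 1 unit is a doubling, and they are not comparable between genes. Genes whose mean lay under a log2 level of 4.5 were set aside as dim, since RMA gives no detection call. All 5 markers passed, and the lowest value of any of them on any array was 6.03 (TFF3, rosemary extract). Array medians lay between 4.82 and 4.90, and arrays of a group correlated at 0.992 or above. The epithelial adhesion gene EPCAM averaged 11.17 with rosemary extract, 11.15 with carnosic acid and 11.36 in untreated cells, and was called lower with both treatments (-0.19 and -0.21). Of the markers of other cells, 0 of 10 tested for enteroendocrine cells, 0 of 2 for fibroblasts and 0 of 3 for hepatocytes were called by limma with either treatment, and 0 had an unadjusted p under 0.05. With 1 array left out, 1 enteroendocrine gene was called with the extract (without untreated replicate 1) and 1 fibroblast gene with carnosic acid (without carnosic acid replicate 2), and 1 hepatocyte gene was called with each treatment when dim genes were kept. Of 2 Paneth cell genes tested, 1 was called lower with the extract (LYZ, -0.26). Of 7 tuft cell genes, 1 was lower with the extract (IL17RB, -1.83) and 1 was higher with carnosic acid (PTGS1, 0.35, limma adjusted p = 0.0201), a call lost on leaving out replicate 1 or 3 of carnosic acid or replicate 2 or 3 of untreated cells (0.0516 to 0.0699). Of 6 leukocyte genes, 1 was higher with both treatments (CD68, a lysosomal protein, 1.89 and 1.24) and 1, LYZ again, was lower with the extract. Their part in the results was not tested. In RNA from whole cultures, fewer cells of a type and less RNA per cell cannot be told apart. Beside these counts, 38.1% of all genes were called with the extract (21.8% higher and 16.3% lower) and 19% with carnosic acid (12.9% higher and 6.12% lower).

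VIL1, whose protein bundles and severs actin in microvilli, had levels of 7.20, 7.23 and 7.34 with rosemary extract. It had 8.13, 8.13 and 8.34 with carnosic acid. Untreated cells had 8.57, 8.55 and 8.51. The 3 groups did not overlap, with rosemary extract lowest, carnosic acid next and untreated cells highest. The log2 change was -1.29 ± 0.07 (SE) with rosemary extract, a level 59.1% lower than in untreated cells (limma adjusted p = 1.52e-07). With carnosic acid it was -0.35 ± 0.07, or 21.5% lower (limma adjusted p = 0.00680). The direct difference, rosemary extract minus carnosic acid, was -0.94 ± 0.07 (limma adjusted p = 5.85e-06). VIL1 overlaps the ubiquitin protease gene USP37 in the annotation, so that gene was set beside it. USP37 changed by -0.27 with rosemary extract and by 0.23 with carnosic acid, neither of them called (limma adjusted p = 0.0701 and 0.158). Between the treatments it was lower with rosemary extract, as VIL1 was (-0.50 ± 0.11, limma adjusted p = 0.00685), and those groups did not overlap.

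Among 9 tested paralogs of the markers, 3 were called higher and 1 lower with rosemary extract, beside 21.8% and 16.3% of all genes. With carnosic acid 3 were called higher and 0 lower by limma, beside 12.9% and 6.12% of all genes. With an unadjusted p under 0.05 there were 0 paralogs lower with carnosic acid, and 1 was called lower without untreated replicate 3. GSN, the actin-severing protein gelsolin, rose by 0.60 ± 0.08 (log2, SE) with rosemary extract and by 0.50 ± 0.08 with carnosic acid (limma adjusted p = 8.23e-05 and 0.00111). SVIL, which encodes supervillin, rose by 0.62 and 0.45 in the same comparisons. The others called higher were FLII of the same family with the extract (0.18, named after its value was seen) and ELF5, an ETS factor like SPDEF, with carnosic acid (0.67). SCIN, which encodes scinderin, changed by -0.45 with the extract (limma adjusted p = 0.0135), a call that was lost on leaving out replicate 2 of the extract (0.0627) or replicate 1 (0.0594) or 2 (0.0553) of untreated cells.

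Of 21 structural genes of the brush border listed, 14 were tested, and 4 were called higher and 3 lower with rosemary extract, beside 21.8% and 16.3% of all genes, with a median log2 change of -0.04 against -0.018 for all genes. CDHR5, a protocadherin that links neighbouring microvilli at their tips, rose by 1.41 ± 0.08 (log2, SE) with the extract and by 0.94 ± 0.08 with carnosic acid. The actin regulators BAIAP2L1 (0.91 and 0.68) and EPS8L3 (0.90 and 0.68) rose likewise. ANKS4B and CALML4, partners of that protocadherin in the tip-link complex, fell by 1.08 and by 0.80 with the extract. The others called with the extract, named after their values were seen, were the capping protein EPS8 (0.31) and the actin bundler PLS1 (-0.36). With carnosic acid 3 of 14 were called higher and 2 lower, beside 12.9% and 6.12% of all genes. Both lower ones were ANKS4B (-0.43, limma adjusted p = 0.0331) and CALML4 (-0.49). The call of ANKS4B was lost when any 1 untreated or carnosic acid array other than untreated replicate 3 was left out, with adjusted p-values from 0.0682 to 0.120.

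Of the genes of absorption and digestion, 1 was called higher and 1 lower with rosemary extract, and 2 higher and 0 lower with carnosic acid, where 1 was lower at an unadjusted p under 0.05. Of 30 listed, 12 were tested, 5 were dim and 13 had no named row here. Over all genes the shares called higher and lower were 21.8% and 16.3% with the extract, and 12.9% and 6.12% with carnosic acid. DPP4, a brush border peptidase, had levels of 9.91, 9.67 and 9.64 with rosemary extract, 9.59, 9.40 and 9.31 with carnosic acid and 8.73, 8.39 and 8.36 in untreated cells. Its log2 change was 1.25 ± 0.11 (SE) with the extract and 0.94 ± 0.11 with carnosic acid (limma adjusted p = 4.07e-06 and 0.000175). The adhesion molecule CEACAM1 was the other gene called: it was lower with rosemary extract (-0.31) and higher with carnosic acid (0.31), and the 2 treatments differed by -0.62 ± 0.08 (limma adjusted p = 0.000222). Its call with carnosic acid was lost on leaving out its replicate 3 (0.0648) or replicate 1 (0.0713) or 2 (0.0624) of untreated cells. The remaining 10 tested genes were not called with either treatment. In this list the higher count with the extract became 3 without untreated replicate 1, and the lower count became 2 without untreated replicate 3.

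The 3 genes whose levels followed VIL1 most closely over the 9 arrays were RRM1, the large subunit of ribonucleotide reductase (Pearson r = 0.998), OIP5, a centromere protein (0.996), and the condensin subunit SMC2 (0.996). After the mean of each group was taken off, r was 0.930, 0.868 and 0.795. These genes were chosen for their r over the same 9 arrays, so both sets of values only describe them and carry no p. RRM1 had a log2 change of -1.39 with the extract and -0.34 with carnosic acid, beside -1.29 and -0.35 for VIL1. Genes of proliferation moved in the same order: 16 of 16 were called lower with rosemary extract and 9 of 16 with carnosic acid. The carnosic acid count was 5 without untreated replicate 2 or carnosic acid replicate 1. Their mean level lay between 8.02 and 8.23 with rosemary extract, between 9.48 and 9.80 with carnosic acid and between 9.92 and 9.97 in untreated cells. Their part in the change of VIL1 was not tested. Of 10 tested crypt stem cell genes 4 were called lower and 1 higher with each treatment. Over all genes 16.3% were called lower and 21.8% higher with the extract, and 6.12% and 12.9% with carnosic acid. The Wnt-linked receptor LGR5, a stem cell marker, was lower with the extract (-2.99) and with carnosic acid (-1.76), as was PROM1, which encodes the surface protein prominin (-1.54 and -0.81). AXIN2, a feedback target of Wnt signalling, rose by 1.15 and 0.66.

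**Figure D2:**
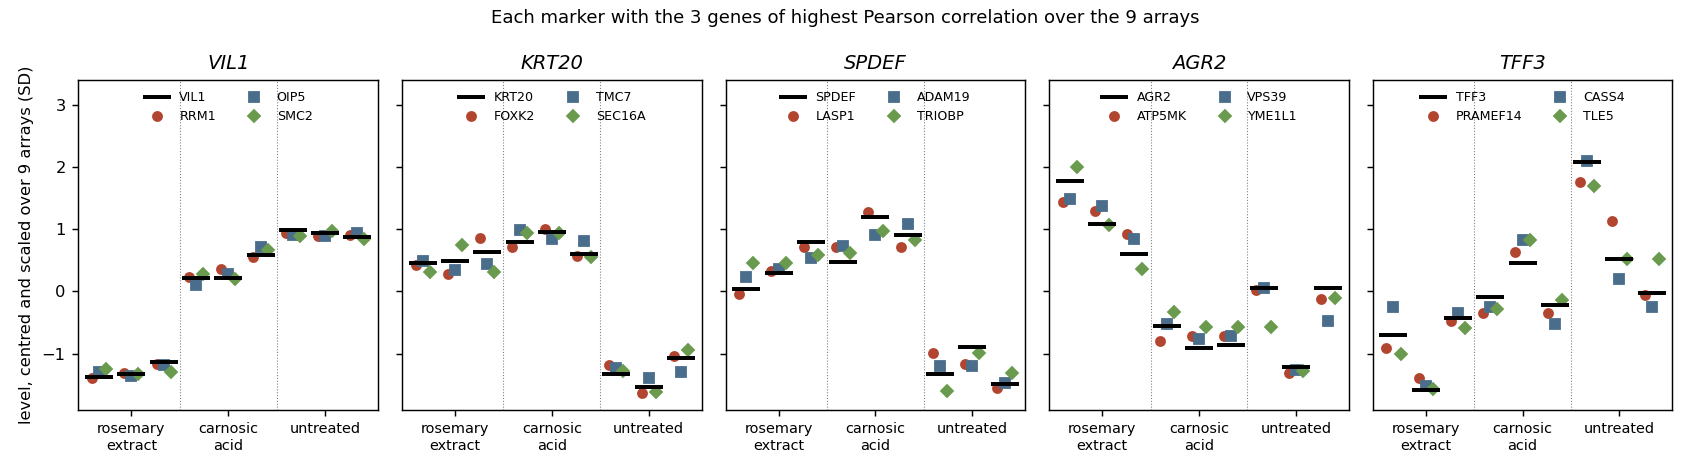
Levels of each marker (black bars) and of the 3 genes with the highest Pearson correlation to it (coloured points), centred and scaled to SD units over the 9 arrays. Dotted lines separate rosemary extract, carnosic acid and untreated arrays. VIL1 and its 3 nearest genes (r = 0.996 to 0.998) step up from left to right, and AGR2 and its nearest genes (0.958 to 0.972) are highest with rosemary extract.

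KRT20, the keratin of mature surface enterocytes, had levels of 11.48, 11.49 and 11.55 with rosemary extract. It had 11.62, 11.69 and 11.54 with carnosic acid. Untreated cells had 10.73, 10.64 and 10.84. Every treated array lay above every untreated one, while the values of the 2 treatments overlapped. The level was 1.71-fold that of untreated cells with the extract (log2 change 0.77 ± 0.06, SE, limma adjusted p = 8.13e-07) and 1.84-fold with carnosic acid (0.88 ± 0.06, limma adjusted p = 2.58e-06). Rosemary extract minus carnosic acid gave -0.11 with a 95% interval from -0.23 to 0.01 (limma adjusted p = 0.228), so a difference between the treatments was not detected.

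Of 7 other keratins tested, 2 were called lower with rosemary extract, KRT18 (-0.48 ± 0.05, log2, SE) and KRT23 (-0.65 ± 0.12). By limma 0 were called higher, with 1 at an unadjusted p under 0.05, and 1 was called when untreated replicate 2 or carnosic acid replicate 3 was left out. At an unadjusted limma p under 0.05, 4 were lower with the extract. Over all genes 21.8% were called higher and 16.3% lower with the extract, and 12.9% and 6.12% with carnosic acid. KRT23 lies next to KRT20 among protein-coding genes of its cluster on chromosome 17, and KRT18 is the acidic partner of KRT8 in simple epithelia. With carnosic acid KRT18 was lower (-0.31, limma adjusted p = 0.000770) and KRT19, another acidic keratin of simple epithelia, was higher (0.28, limma adjusted p = 0.00862). The median log2 change of the 7 was -0.27 with the extract and -0.11 with carnosic acid, against 0.77 and 0.88 for KRT20. The genes most like KRT20 over the 9 arrays were FOXK2 (r = 0.993), TMC7 (0.986) and SEC16A (0.985), with r of 0.880, 0.286 and 0.714 after the group means were taken off.

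SPDEF, the ETS factor of goblet cell maturation, had levels of 8.64, 8.75 and 8.97 with rosemary extract. It had 8.83, 9.14 and 9.02 with carnosic acid. Untreated cells had 8.04, 8.23 and 7.97. As for KRT20, all treated arrays lay above all untreated ones and the 2 treatments overlapped. SPDEF was at 1.63-fold the untreated level with the extract (log2 change 0.71 ± 0.10, SE, limma adjusted p = 0.000215) and at 1.89-fold with carnosic acid (0.92 ± 0.10, limma adjusted p = 0.000130). Rosemary extract minus carnosic acid was -0.21, with a 95% interval from -0.44 to 0.02 (limma adjusted p = 0.217). SPDEF and KRT20 correlated at r = 0.934 over the 9 arrays and at -0.057 after the group means were taken off. The genes most like SPDEF were LASP1 (r = 0.984), ADAM19 (0.977) and TRIOBP (0.973).

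Promoter sequences are shown for KRT20 and SPDEF, which rose together with both treatments, and for AGR2, which rose with the extract. Each runs from 250 bases before to 50 after the start of the gene, 5′ to 3′ on its own strand (RefSeq, GRCh38.p14, minus strand for all 3). KRT20 lies at chr17:40885193-40885492, SPDEF at chr6:34556280-34556579 and AGR2 at chr7:16804950-16805249. Capitals mark matches to the motifs described below.
KRT20: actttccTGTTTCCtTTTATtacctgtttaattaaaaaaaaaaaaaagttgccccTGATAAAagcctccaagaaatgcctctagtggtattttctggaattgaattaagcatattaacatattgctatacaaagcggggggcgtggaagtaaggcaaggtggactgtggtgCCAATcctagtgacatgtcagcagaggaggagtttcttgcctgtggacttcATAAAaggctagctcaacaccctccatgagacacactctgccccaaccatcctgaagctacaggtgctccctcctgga
SPDEF: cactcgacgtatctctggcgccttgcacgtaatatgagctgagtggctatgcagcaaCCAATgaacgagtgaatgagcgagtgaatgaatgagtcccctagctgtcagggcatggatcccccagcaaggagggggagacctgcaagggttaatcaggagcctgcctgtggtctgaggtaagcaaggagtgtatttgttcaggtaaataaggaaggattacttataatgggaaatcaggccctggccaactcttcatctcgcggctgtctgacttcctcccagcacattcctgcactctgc
AGR2: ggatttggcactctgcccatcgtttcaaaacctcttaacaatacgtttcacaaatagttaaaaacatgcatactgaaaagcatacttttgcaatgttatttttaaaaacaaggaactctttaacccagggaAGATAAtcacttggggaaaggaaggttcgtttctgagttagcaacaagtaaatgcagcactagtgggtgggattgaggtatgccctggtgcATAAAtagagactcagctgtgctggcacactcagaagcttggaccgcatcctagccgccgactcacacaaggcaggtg

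Motifs were searched on both strands. TTTAT, the core bound by the intestinal CDX factors, matched 3 times in KRT20 and once in AGR2, and 34.9% of 35116 promoters of this length hold it. In both genes a match lies 28 bases before the start and reads ATAAA on the strand of the gene. Those letters are also part of the TATA box motif TATAAA, so a CDX core and a variant TATA box cannot be told apart there. TGATAA and AGATAA, bound by GATA factors, matched once in KRT20 and once in AGR2, and are found in 7.53% and 10.3% of promoters. In KRT20 the TGATAA match overlaps a TTTAT match on the other strand. TGTTTNC, bound by FOXA factors, matched once in KRT20 (18% of promoters). CCAAT matched once in KRT20 and once in SPDEF (34.6% of promoters), and was the only motif of the search found in SPDEF. TATAAA (11.5% of promoters), the electrophile response core TGACNNNGC (13.3%), the unfolded protein response element TGACGTG (1.97%) and the CHOP-ATF4 composite TGATGNAA (3.62%) had no match in these 3 windows. A match is a run of letters and not a measured binding site.

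Of 13 tested intestinal transcription factors 1 was called higher and 4 lower with rosemary extract, and 1 higher and 1 lower with carnosic acid. Of all genes, 21.8% were called higher and 16.3% lower with the extract, and 12.9% and 6.12% with carnosic acid. Under cyclic loess scaling 7 were lower with the extract. PPARG, a lipid-activated nuclear receptor of the colon epithelium, fell by 1.14 with the extract and by 0.57 with carnosic acid. GATA6 (-0.35), NOTCH1 (-0.47) and FOXA1 (-0.22) were lower with the extract. The call of FOXA1 was lost without untreated replicate 2 or 3 or rosemary extract replicate 1 or 2 (adjusted p from 0.0647 to 0.132). KLF4, a factor of goblet cell differentiation in the mouse colon, rose by 0.34 with the extract (limma adjusted p = 0.0188), a call lost on leaving out replicate 1 of the extract (0.0850) or replicate 3 of untreated cells (0.0718), and changed by 0.17 with carnosic acid (0.254). The factor called higher with carnosic acid was SOX9 of crypt and Paneth cells (0.21, limma adjusted p = 0.0351), a call lost on leaving out any 1 carnosic acid array or replicate 1 or 2 of untreated cells (0.0548 to 0.113) and under both other scalings. CDX2 changed by -0.17 and -0.11, and ATOH1, the master factor of the secretory lineage, by 0.12 and 0.09, and neither was called.

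AGR2, the disulfide isomerase of mucin-producing cells, had levels of 7.37, 7.14 and 6.98 with rosemary extract. It had 6.60, 6.48 and 6.50 with carnosic acid. Untreated cells had 6.80, 6.38 and 6.80. The extract arrays lay above all others, and carnosic acid and untreated arrays overlapped. The log2 change with the extract was 0.50 ± 0.13 (SE), or 1.41-fold (limma adjusted p = 0.00926), and without untreated replicate 2, the lowest untreated array, it was 0.36 (0.0332). With carnosic acid it was -0.13, with a 95% interval from -0.42 to 0.15 (limma adjusted p = 0.517). The direct difference, rosemary extract minus carnosic acid, was 0.63 ± 0.13, or 1.55-fold (limma adjusted p = 0.00527). Among arrays of the same group AGR2 and SPDEF ran opposite to each other, with r = -0.853 after the group means were taken off and -0.043 before. It was the strongest such value of all pairs of markers, which otherwise ran from -0.392 to 0.440. The value describes these 9 arrays, carries no p, and its cause was not tested. The genes most like AGR2 over the 9 arrays were ATP5MK (r = 0.972), VPS39 (0.963) and YME1L1 (0.958).

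Of 9 tested relatives of AGR2 in the disulfide isomerase family, 4 were called higher and 4 lower with rosemary extract (median log2 change -0.06). Over all genes the shares were 21.8% and 16.3%. With carnosic acid 1 relative was called higher and 2 lower (median -0.03), beside 12.9% and 6.12% of all genes. The higher one with carnosic acid was TXNDC11 (0.27, limma adjusted p = 0.0398), whose call was lost in 11 of 18 alternatives, among them each untreated array left out (0.0685 to 0.110), rosemary extract replicate 2 (0.0609) and carnosic acid replicates 1 (0.158) and 3 (0.0638). ERP44, which retrieves unassembled secretory proteins, rose by 0.28 with the extract, and changed by -0.05 with carnosic acid. The thioredoxin-like TXNDC11 rose by 0.38 with the extract. TXNDC12, the closest relative of AGR2 among those tested, fell by 0.27 with the extract and by 0.28 with carnosic acid. The transmembrane oxidoreductases TMX1 and TMX4 fell by 0.52 and 0.58 with the extract, and ERP27, which lacks the redox active site, fell by 0.56. TMX4 was the other relative called lower with carnosic acid, with a log2 change between -0.596 and -0.484 over 18 alternatives. AGR3, the sister gene that lies next to AGR2 on chromosome 7, was dim (means of 3.23 with rosemary extract, 3.43 with carnosic acid and 3.71 in untreated cells) and was not tested. TSPAN13, the neighbour on the other side, was looked up for its place and rose by 0.37 with the extract (limma adjusted p = 0.000345), with 0.10 with carnosic acid (0.265). BZW2, the next protein-coding gene beyond TSPAN13, went the other way and was called lower with both treatments. Over 18 alternatives its log2 change lay between -0.904 and -0.781 with the extract and between -0.632 and -0.509 with carnosic acid.

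TFF3, the trefoil peptide of intestinal mucus, had levels of 6.16, 6.03 and 6.20 with rosemary extract. It had 6.25, 6.33 and 6.23 with carnosic acid. Untreated cells had 6.57, 6.34 and 6.26. The extract arrays lay below both other groups, though close to the nearest array of each, and carnosic acid and untreated arrays overlapped. The log2 change with the extract was -0.26 ± 0.10 (SE), a level 16.6% lower, and its limma adjusted p = 0.0497 lay just inside the threshold. Without untreated replicate 1 the change was -0.17 (limma adjusted p = 0.182), and the call was lost on leaving out any 1 of the 9 arrays other than untreated replicate 3 (adjusted p from 0.0554 to 0.182). It held in 6 of 18 alternatives. With carnosic acid the change was -0.12, with a 95% interval from -0.33 to 0.09 (limma adjusted p = 0.426). Its neighbours in the trefoil cluster on chromosome 21 were not called: TFF1, a trefoil peptide mainly of the stomach, changed by 0.13 with the extract and by 0.31 with carnosic acid (limma adjusted p = 0.387 and 0.0717), and TFF2 by 0.03 and 0.01. The genes most like TFF3 were PRAMEF14 (r = 0.960), CASS4 (0.959) and TLE5 (0.954).

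**Figure D3:**
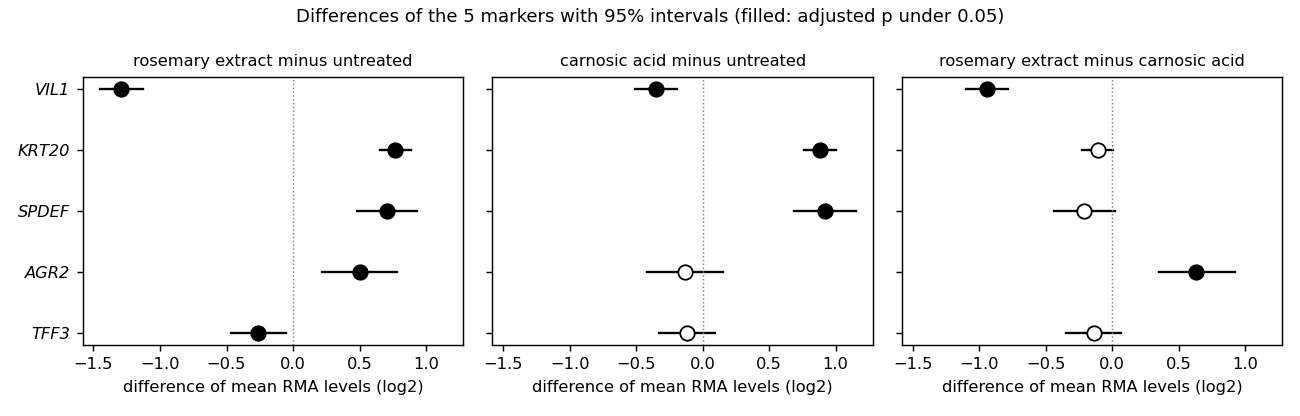
Differences of mean RMA level (log2, horizontal axes) for the 5 markers in the 3 comparisons, with 95% intervals from limma. Filled points have an adjusted p under 0.05. VIL1 lies left of 0 in all 3 panels, and AGR2 is right of 0 for rosemary extract against both other groups.

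Of 34 other goblet cell and mucus genes listed, 19 were tested, 4 were dim and 11 had no named row here, MUC2 among them. With rosemary extract 4 of 19 were called higher and 5 lower, beside 21.8% and 16.3% of all genes, with a median log2 change of -0.09 against -0.018 for all genes. MLPH, melanophilin, which ties secretory vesicles to myosin, rose by 1.49 ± 0.07 (log2, SE) with the extract and by 1.03 ± 0.07 with carnosic acid. The secreted whey-acidic protein WFDC2 rose by 0.73 and 0.93. GALNT12, an enzyme that starts mucin-type sugar chains, fell by 1.61 ± 0.09 with the extract, BCAS1 by 1.20, and the vesicle-tethering gene SYTL2 by 0.87. With carnosic acid 2 of 19 were called higher and 2 lower, beside 12.9% and 6.12% of all genes (median -0.11). The lower ones were SYTL2 (-0.41, limma adjusted p = 0.0145) and GALNT12 (-0.29, limma adjusted p = 0.0469). GALNT12 lost its call without any 1 of the untreated arrays, without rosemary extract replicate 1 or 2 or without carnosic acid replicate 1 or 2 (0.0508 to 0.146), and SYTL2 without carnosic acid replicate 1 (0.0502). Under median centring or cyclic loess 4 were lower with carnosic acid. With the extract, 2 were higher without rosemary extract replicate 1, and 3 were lower when the dimmer 50% of genes were left out. GALNT12 differed between rosemary extract and carnosic acid by -1.32 ± 0.09 and BCAS1 by -0.92 ± 0.10 (limma adjusted p = 2.52e-06 and 6.57e-05).

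**Figure D4:**
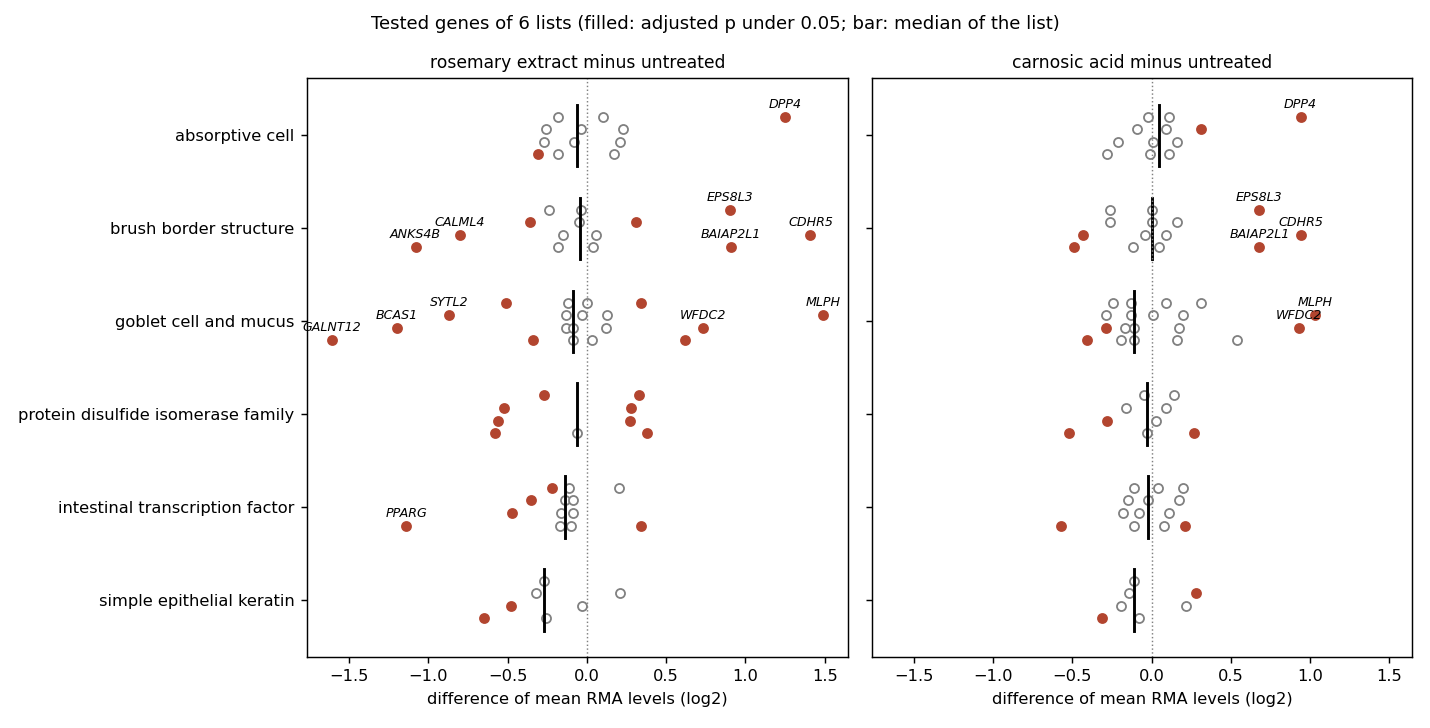
Differences of mean RMA level (log2, horizontal axes) for the tested genes of 6 lists, rosemary extract minus untreated on the left and carnosic acid minus untreated on the right. Filled points have an adjusted p under 0.05, black bars are list medians, and called genes beyond 0.65 are named. Brush border and goblet cell genes spread to both sides of 0, from GALNT12 (-1.61) to MLPH (1.49) with rosemary extract.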

How the data were processed

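Per the labels, the authors made the deposited log2 values with RMA from the oligo package in R, a method that subtracts background, quantile-normalizes the arrays and combines each row's probes; no version is named. Its quantile step can hide a shift shared by most genes, and low signals are compressed. That the deposited values are log2 was read from their range. Symbols came from the platform annotation: 16098 of 53617 had 1 gene symbol, 0 several, and 37519 were unnamed. All 16098 Entrez identifiers matched a RefSeq table, and 0 symbols changed. For genes with several rows the row of highest mean was kept, and the dimmest 25% (3721 genes) were left out, leaving 11163 genes. Group means were fitted to all 9 arrays with limma 3.58.1 in R 4.3.3 (lmFit, then eBayes with trend, leaving 6 residual degrees of freedom, two-sided, Benjamini-Hochberg adjustment). Fits were tested on simulated data with known changes in only a small share of the genes. In the real comparisons 38.1%, 19% and 17.3% of genes were called, so recovery there can differ from the simulated rates. The simulated layout was the same for every comparison, so the rates differ between comparisons only by random draws. Of 1.3-fold changes, 37.6% were recovered for rosemary extract against untreated, 41.2% for carnosic acid against untreated and 47.8% between the treatments. Of 2-fold changes, 95.2%, 97.9% and 96.1% were recovered. A gene not called can therefore still have a small change. The number of arrays limits the precision. No pair of arrays was identical (0 pairs).

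The markers and gene lists were chosen with earlier results of these data known. Named genes are the 5 markers, CDX2, KLF4, ATOH1, MUC2, TFF1, TFF2 and AGR3, the called genes of each list with the smallest p (up to 5 or 3), and the 3 genes most correlated with each marker, leaving out uncharacterised loci and small RNAs. Genes outside this rule are said to be so, or are chromosome neighbours. Alternatives were median centring, cyclic loess, other dim limits, the mean of a gene's rows, all rows, the 6 arrays compared, no trend, a replicate block and leaving out each array.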

Additional observations from a re-analysis of the deposited data

How the results depend on the processing

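The directions of all 5 markers in all 3 comparisons were kept in the 18 alternatives tried, and every call of VIL1, KRT20, SPDEF and AGR2 held in all 18. The call of TFF3 with rosemary extract against untreated cells (log2 change -0.263) was lost with no filter on dim genes (-0.263, limma adjusted p = 0.0611), with all rows of the array tested (0.119), in a fit to the 6 arrays compared (0.0790) and with the replicate number as a block (-0.263, 0.0645). Leaving out 1 array gave -0.328 to -0.173 for TFF3 (adjusted p from 0.0279 to 0.182). The cause was not tested. Same-numbered arrays of different groups correlated between -0.219 and 0.238 after group means were removed, so the numbers were not taken as pairing; the replicate block changed no other marker's call.

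Over all genes, rosemary extract against untreated gave 2439 higher and 1817 lower calls, and 4207 and 3023 with all rows tested. Carnosic acid against untreated gave 1440 higher and 683 lower, against 1207 and 1098 under median centring and 1245 and 1022 under cyclic loess. Without 1 array its lower count ranged from 367 (without carnosic acid replicate 1) to 687. Rosemary extract against carnosic acid gave 920 higher, and 533 to 1036 without 1 array, with the lowest counts without rosemary extract replicate 2 (533), rosemary extract replicate 1 (551) and carnosic acid replicate 2 (612). Signs were checked for the markers and for CDX2, KLF4, ATOH1, TFF1 and TFF2. Of the other genes in the naming rule and the chromosome neighbours, only those called in a comparison were checked in it. Signs turned for TFF2, ATOH1 and CDX2, whose adjusted p in those comparisons was never under 0.05. TFF2 gave -0.001 (rosemary extract) and -0.041 (carnosic acid) under median centring. Leaving out 1 array gave TFF2 -0.172 to 0.138 with rosemary extract, -0.047 to 0.110 with carnosic acid and -0.178 to 0.132 between the treatments, ATOH1 -0.056 to 0.293, -0.081 to 0.269 and -0.037 to 0.088, and CDX2 -0.219 to 0.007 with carnosic acid and -0.181 to 0.045 between the treatments.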
